A study of Mus musculus with 54 samples.

Results

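Cohesin sites of neural progenitor cells (NPCs) at which no CTCF peak was called are described here, 81 sites of 43916 merged Smc3 sites in NPCs. Smc3 is a core subunit of the cohesin ring. The sites were selected on the peak lists themselves: overlapping peaks of 6 Smc3 libraries were merged, and a site was kept when at least 4 of the 6 libraries called it, when it overlapped no peak of any of 14 NPC CTCF libraries, and when it overlapped no Smc3 peak of 4 libraries of embryonic stem cells (ESCs). Of the 17367 sites called in at least 4 of the 6 libraries, 15206 had both an NPC CTCF peak and an ESC Smc3 peak, 1988 had CTCF without ESC Smc3, 92 had ESC Smc3 without CTCF, and 81 had neither. Smc3 calls, the absence of CTCF peaks and the absence from ESCs are therefore properties of the choice and not findings. Gene position, DNA sequence, Rad21 peaks, CTCF peaks in ESCs and the Smc3 libraries of the RNA truncation lines were not used to choose the sites.

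The 6 Smc3 libraries came from 3 kinds of NPC, with 2 libraries each. CTCF-ZF1 mutant rescue cells (ZF1 rescue) and CTCF-WT rescue cells (WT rescue) were derived from E14 ESCs in which both CTCF alleles carried an auxin-inducible degron, with OsTir1(F74G) at Rosa26, an mCherry reporter at Mnx1 and a doxycycline-inducible CTCF transgene at the Tigre locus, the mutant transgene lacking zinc finger 1, a finger that binds RNA. Both rescue lines descended from the same degron clone, and both received 1 µM 5-Ph-IAA and 1 µg/ml doxycycline for 24 hours, so that the CTCF in them was the transgene's. E14 WT cells (E14TG2a) carried no degron and no transgene and received neither agent. The Podxl SV40pA and Grb10 SV40pA RNA truncation mutants, also E14 cells, carried a polyadenylation signal inserted into the named gene. NPCs were made by 2 days of differentiation, and all values come from chromatin immunoprecipitation with sequencing. Peak lists do not measure expression, so the cell type label was not checked against marker genes.

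Cohesin is loaded onto DNA, extrudes loops and is held at sites where CTCF is bound in a particular orientation, and for this reason nearly all strong cohesin peaks of mammalian cells coincide with CTCF. Cohesin peaks without CTCF have been described at active promoters and enhancers, where the loading factor Nipbl and the transcription machinery are found. Smc3 and Rad21 are parts of the same ring, and a peak of both is stronger evidence of cohesin than a peak of either.

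The 81 sites were of different kinds when read against the genome (build mm10). A CTCF motif lay within 100 bp of the Smc3 summit at 45 sites, and 44 of these were more than 1 kb from any annotated transcription start. At the other 36 sites no motif passed the threshold in that window, and sequence further from the summit was not searched. Of these 36 sites, 18 were within 1 kb of a transcription start. The motif was a matrix of 20 positions learned from the strongest CTCF peaks of an E14 NPC library, and the threshold, 9.02 on a log2-odds scale, was passed by 5% of windows of the same length 2 kb away from all sites called in at least 4 libraries. The split into sites with and without a motif was made after the values had been seen.

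The motif matches at 7 sites show what lay under these peaks. They are given on the strand of the motif with the match in capitals and 15 bases on either side. Gm29759 is the site called in all 6 libraries, Dcx the site with no ZF1 rescue call, Gm8365 and Olfm3 are sites with Rad21, and Zfp664 is the site with the most CTCF calls in ESCs. Slit3 and Slitrk5 were chosen after the values had been seen, as strong sites near genes of axon guidance and synapse formation.
Gm29759, chr7:122808439-122808488, minus strand: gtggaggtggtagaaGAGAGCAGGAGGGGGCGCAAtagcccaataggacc
Dcx, chrX:143996934-143996983, minus strand: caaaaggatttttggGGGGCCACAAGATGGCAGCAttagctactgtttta
Slit3, chr11:35104599-35104648, plus strand: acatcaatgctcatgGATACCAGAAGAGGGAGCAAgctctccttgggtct
Gm8365, chr5:106785255-106785304, minus strand: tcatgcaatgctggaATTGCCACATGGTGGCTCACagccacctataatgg
Slitrk5, chr14:111778327-111778376, minus strand: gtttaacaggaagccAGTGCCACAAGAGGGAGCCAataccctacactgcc
Olfm3, chr3:115105018-115105067, minus strand: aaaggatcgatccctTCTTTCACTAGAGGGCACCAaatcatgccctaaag
Zfp664, chr5:124901266-124901315, plus strand: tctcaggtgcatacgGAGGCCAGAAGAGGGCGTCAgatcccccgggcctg

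The scores of these matches differed widely. The Zfp664 match scored 20.3 and the Dcx match 19.2, above the median of 17.4 over the 15206 sites with CTCF and ESC Smc3. The Slitrk5 match scored 17.2, the Olfm3 match 15.3, the Slit3 match 15.0 and the Gm29759 match 14.1. The Gm8365 match scored 9.28, just above the threshold. Over all 45 sites the score ranged up to 21.4, at a site in an intron of Sec24d, a component of the COPII vesicle coat.

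A CTCF motif was found at 55.6% of the 81 sites (45 sites, 95% Wilson interval 44.7 to 65.9), against 82.2% of the CTCF sites without ESC Smc3 (80.5 to 83.9), at 14447 of 15206 CTCF sites with ESC Smc3 (94.7% to 95.3%) and 37.0% of the 92 sites with ESC Smc3 and no CTCF (27.8 to 47.2). In windows 2 kb away from the 81 sites the share was 2.47%, 2 windows. The classes were set by NPC CTCF peaks, and the matrix was learned from a CTCF list that also excluded sites. A lower motif share at the 81 sites than at CTCF sites was therefore favoured by the choice. All intervals on shares of sites cover counting error only. The matches lay close to the summit, with a median distance of 9 bp and a largest distance of 27 bp from the motif centre, although the search reached 100 bp to either side. The label of the group, cohesin without CTCF, therefore describes peak calls in these 14 libraries and not the absence of CTCF motifs.

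**Figure D1:**
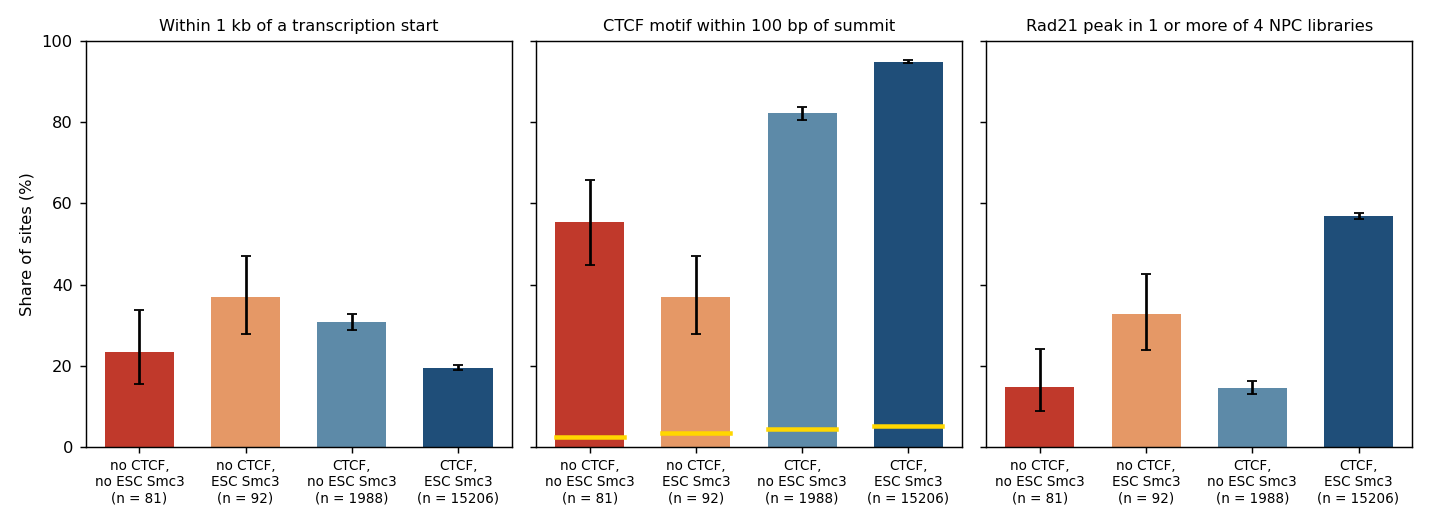
Share of NPC Smc3 sites (%) within 1 kb of a transcription start, with a CTCF motif within 100 bp of the summit, and with a Rad21 peak in at least 1 of 4 NPC libraries, for the 81 sites and the 3 other classes called in at least 4 of 6 libraries. Bars are shares, black lines 95% Wilson intervals, and yellow lines the motif share 2 kb away. The 81 sites hold a motif at 55.6% and Rad21 at 14.8%.

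Sites with a motif were narrower and stronger than those without. Their median width was 284 bp, against 542 bp at the 36 sites without a motif. The middle 50% of their mean Smc3 percentiles lay between 32.3 and 51.3, against 12.4 and 27.8 at the 36 sites. The mean Smc3 percentile is the rank of the summit's fold enrichment within the list of a library, averaged over the libraries that called the site, with 100 the highest. Over all 81 sites it ranged between 4.95 and 73.0 with a median of 32.3, against 39.3 at CTCF sites without ESC Smc3 and 63.2 at CTCF sites with it. These values of Smc3 belong to the measure that chose the sites and carry no test. The GC content of the 201 bp around the summit was 46.8% at the median with a motif and 58.2% without, and the median number of CpG dinucleotides was 1 with a motif and 7.5 without. Repeat-masked bases made up more than 50% of the window at 10 of 45 sites with a motif (22.2%, 12.5 to 36.3), 4 of 36 without (11.1%, 4.41 to 25.3) and 10.5% of the CTCF sites with ESC Smc3.

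**Figure D2:**
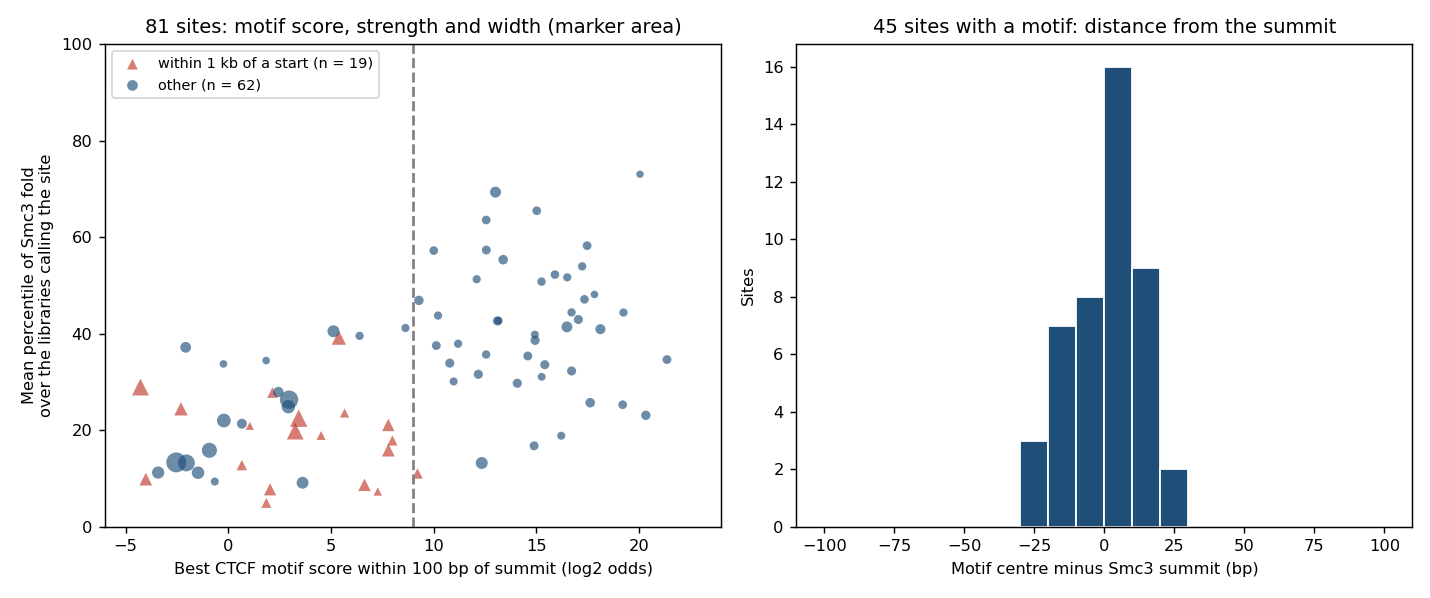
Left, best CTCF motif score (log2 odds, x axis) against the mean percentile of Smc3 fold (y axis) at each of the 81 sites, with marker area scaled to width, triangles for sites within 1 kb of a start and the dashed line at the threshold of 9.02. Right, number of sites by distance in bp of the motif centre from the Smc3 summit at the 45 sites with a motif. Of the 19 triangles 18 lie left of the line, and all 45 motifs lie within 27 bp of the summit.

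The sites with a motif were mostly far from genes. By the annotation (GENCODE M21) their summits were intergenic at 30 sites and intronic at 11, and the median distance to the nearest transcription start was 18179 bp. The strongest lay in an intron of Slc27a6, a fatty acid transporter. Another strong site lay 16591 bp upstream of Slit3, a ligand of axon guidance receptors. Others lay 23013 bp downstream of the start of Irx5, a homeobox transcription factor, 102503 bp downstream of that of Slitrk5, a synaptic adhesion protein, and within introns of Olfm3, a secreted olfactomedin protein, and Brinp1, a gene of the nervous system. These genes were chosen after the values had been seen. For 36 of the 81 sites the nearest start was not that of a protein-coding gene.

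The Slit3 site was among the strongest. Fold enrichment is the ratio of fragments at the summit to the local background, with the same constant added to both. The constant lowers the fold more where the background is low, as in E14 NPCs. Folds of rescue and E14 NPCs are therefore not on the same scale. At the Slit3 site the Smc3 fold was 15.5 and 12.1 in ZF1 rescue NPCs. It was 9.05 and 6.29 in WT rescue NPCs, with no peak in E14. The 4 values came from 51, 52, 28 and 20 fragments at the summit. Both ZF1 rescue libraries were above both WT rescue libraries, but the difference did not pass the test reported further on.

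The Slitrk5 site had 6.59 and 8.76 in ZF1 rescue, 10.2 in WT rescue replicate 1 and 9.50 in E14 replicate 1. The Zcchc12 site lay 12067 bp upstream of a gene for a coactivator of BMP signalling. It had 8.15 and 7.26 in ZF1 rescue, 11.8 in WT rescue replicate 1, and 8.82 and 8.43 in E14. Both E14 values were above both ZF1 rescue values, in fold and by rank within a library. The difference did not pass the test reported further on. WT rescue replicate 2 called none of the Slitrk5, Zcchc12, Olfm3 and Brinp1 sites.

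The Gm29759 site, chr7:122808313-122808621, was called by all 6 libraries. It is intergenic, 29525 bp from the start of that predicted gene and 137020 bp from that of Cacng3, a regulator of AMPA receptors. Its fold enrichment was 7.89 and 5.18 in ZF1 rescue, 8.47 and 5.78 in WT rescue, and 5.17 and 5.63 in E14 NPCs. The ZF1 rescue and WT rescue values overlapped. By rank within a library, the scale of the test reported further on, both E14 values were below those of each rescue line. Neither difference from E14 passed that test, and the E14 values rested on 8 fragments each.

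The Dcx site, chrX:143996781-143997035, had a pattern found at no other of the 81 sites, with a peak in both WT rescue and both E14 libraries and in neither ZF1 rescue library. It lies 63629 bp upstream of Dcx, which encodes doublecortin, a microtubule protein of migrating neurons. The fold enrichment was 9.89 and 6.06 in WT rescue and 8.78 and 8.43 in E14 NPCs, from 30, 19, 12 and 11 fragments. It was also called in Podxl SV40pA replicate 1 at 5.83 and in Grb10 SV40pA replicate 1 at 6.46.

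**Figure D3:**
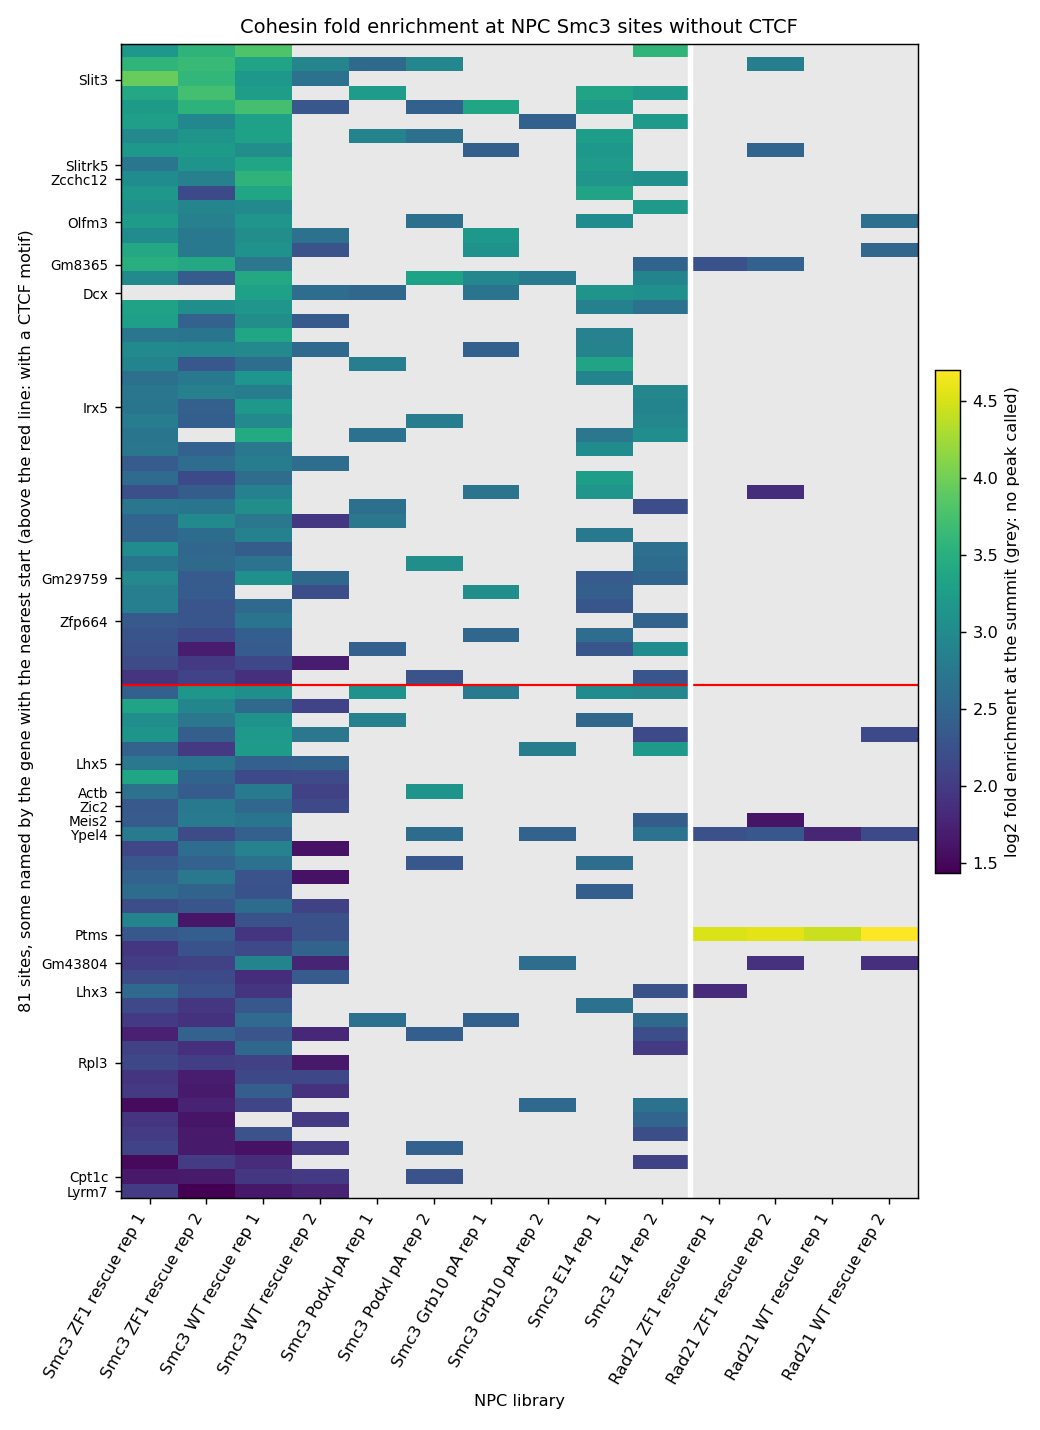
log2 fold enrichment of Smc3 and Rad21 at the summit (colour) at the 81 sites (rows, 20 of them labelled by the gene with the nearest start) in 14 NPC libraries (columns), with grey where no peak was called. Rows above the red line have a CTCF motif, and within each part rows are ordered by mean Smc3 percentile. Ptms stands out in the 4 Rad21 columns and Dcx is grey in both ZF1 rescue columns.

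Of the 81 sites, 19 lay within 1 kb of an annotated transcription start (23.5%, 15.6 to 33.8). The share was 20.9% over the other 17286 sites called in at least 4 libraries (20.3 to 21.5), inside the interval of the 81. Among the sites kept without ZF1 rescue replicate 1, without ZF1 rescue replicate 2 or without WT rescue replicate 1, the share was 8.33% (1 of 12), and among the 49 sites kept at a −log10 q of at least 5 it was 10.2%. The share was 30.7% at CTCF sites without ESC Smc3 (28.7 to 32.7), 19.5% at CTCF sites with ESC Smc3, and 37.0% at the 92 sites with ESC Smc3 and no CTCF (27.8 to 47.2). A CTCF motif was present at 1 of the 19 sites, Snrpa1 (5.26%, 0.935 to 24.6), and at 82.8% of the 3612 other promoter sites (81.6 to 84.0), nearly all of which had an NPC CTCF peak. The median number of CpG dinucleotides was 11 at the 19 sites and 9 at the others.

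The 19 promoter sites included transcription factor genes of the nervous system and genes used in all cells. Meis2, a homeobox factor of progenitors, and Lhx3, a LIM-homeobox factor of motor and interneurons, were of the first kind. Genes of general function were Rpl3, a ribosomal protein, Actb, cytoplasmic actin, Snrpa1, a part of the U2 spliceosomal particle, Stt3b, a subunit of oligosaccharyltransferase, Scfd1, a regulator of vesicle traffic, Trmt5, a tRNA methyltransferase, and Snx12, a sorting nexin. Peg10, an imprinted gene derived from a retrotransposon, Cpt1c, a neuronal carnitine palmitoyltransferase, and Ptms, parathymosin, were also among them.

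The Meis2 site, chr2:116065574-116065989, had its summit 9 bp from the start, in an untranslated region of the gene. Its Smc3 fold enrichment was 5.19 and 6.89 in ZF1 rescue, 6.52 in WT rescue replicate 1 and 5.30 in E14 replicate 2. The Lhx3 site, chr2:26208022-26208404, had its summit 1 bp from the start, with 5.87 and 4.77 in ZF1 rescue, 3.83 in WT rescue replicate 1 and 4.77 in E14 replicate 2. Both sites had a Rad21 peak in 1 ZF1 rescue library, at a fold of 3.08 for Meis2 and 3.57 for Lhx3. These peaks were among the weakest of their lists, at percentiles of 2.23 and 2.22.

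The Actb site, chr5:142902003-142903047, was 1045 bp wide, with a summit 1235 bp downstream of the start, and had 6.30 and 5.22 in ZF1 rescue and 6.93 and 4.20 in WT rescue NPCs. Neither E14 library called it, while Podxl SV40pA replicate 2 did at 8.70. Rpl3 had 4.42 and 4.12 in ZF1 rescue and 4.19 and 3.17 in WT rescue NPCs. In fold the groups overlapped at both genes. By rank within a library they overlapped at Rpl3, while at Actb both ZF1 rescue values were below both WT rescue values. The Actb difference did not pass the test reported further on.

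Homeobox and other neural factor genes also had sites outside the 1 kb window. A site of 1462 bp, the widest of the 81, lay in an intron of Sox1ot, 5843 bp from the nearest start of Sox1, a factor that marks the neural plate. It was called in 5 libraries, with 3.32 and 5.49 in ZF1 rescue, 4.92 and 3.50 in WT rescue and 4.64 in E14 replicate 2. A site 3257 bp downstream of the start of Zic2, a zinc finger factor of the neural tube, had 5.11 and 6.75 in ZF1 rescue and 5.81 and 4.45 in WT rescue. A site 7496 bp upstream of Lhx5, a LIM-homeobox factor of the forebrain, had 6.68 and 6.51 in ZF1 rescue and 5.43 and 5.55 in WT rescue. By rank within a library, the scale of the test reported further on, the groups overlapped at all 3. In fold, both ZF1 rescue values were above both WT rescue values at Lhx5. None of the 3 had a CTCF motif within 100 bp of the summit. These genes were chosen after the values had been seen.

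Read against lists of genes, the sites were few. Of 25 neural progenitor genes, 1 (Meis2) had one of the 81 sites within 1 kb of a start, and 6 (24%) had another NPC Smc3 site called in at least 4 libraries. Of 14 housekeeping genes, 1 (Actb) had one of the 81 and 7 (50%) another site. No gene of the 18 in the pluripotency list, the 15 in the neuron list, the 27 signalling targets or the 17 retinoid and Hox genes had one of the 81 within 1 kb. Within 100 kb, 2 neural progenitor genes, Meis2 and Sox1, 1 neuron gene, Dcx, and 2 housekeeping genes, Actb and Tubb5, had a site.

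The ETS word CCGGAAG was searched on both strands within 100 bp of the summit. It was present at 4 of the 19 promoter sites (21.1%, 8.51 to 43.3), against 4.82% of the other 3612 promoter sites (4.17 to 5.56). Nearly all of those others had an NPC CTCF peak. The word was at 0 of the 62 sites further from a start (upper bound 5.83%). Over all 81 sites its share was 4.94%, against 5.43% at the 92 sites with ESC Smc3 and no CTCF (2.34 to 12.1). The share over all sites was therefore not particular to the 81. The share at promoters among those 92 was not computed. ETS factors are common at promoters of genes with general functions. The word is shown at the 4 promoter sites with 11 bases on either side on its own strand, because these 4 lacked a CTCF motif.
Meis2, chr2:116065727-116065755, plus strand: aatgacggaacCCGGAAGtcgtggtggcc
Scfd1, chr12:51377513-51377541, minus strand: tacctcccgcgCCGGAAGcagaaccagga
Trmt5, chr12:73286778-73286806, minus strand: aaatcgcgggcCCGGAAGagaggtgcgag
Snx12, chrX:101222648-101222676, minus strand: accagtaccacCCGGAAGtctgaatgacg

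Another 7 short words were searched in the same way. The GC-box word GGGCGG was at 2 of the 19 promoter sites (10.5%, 2.94 to 31.4) and 31.5% of the other promoter sites. The word CCAAT was at 7 (36.8%, 19.1 to 59.0) and at 16.7% of the others. In windows 2 kb away from the 19 sites, CCAAT was also at 7 (36.8%), GGGCGG at 1 and the ETS word at 0. The AP-1 word TGANTCA was at 0 of the 19, the CRE word TGACGTCA at 1, the E-box word CAGCTG at 2, the SOX word AACAAAG at 1 and the octamer word ATTTGCAT at 0. A match is a description of the letters and was not tested as a binding site.

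Rad21, the subunit that closes the cohesin ring, was not used to choose the sites. At least 1 of the 4 NPC Rad21 libraries had a peak at 12 of these sites (14.8%, 8.68 to 24.1), at 14.5% of the CTCF sites without ESC Smc3 (13.1 to 16.2), at 32.6% of the 92 sites with ESC Smc3 and no CTCF (23.9 to 42.7) and at 56.9% of the CTCF sites with ESC Smc3. By library, 4 and 8 of the 81 sites had a Rad21 peak in ZF1 rescue NPCs (4.94% and 9.88%), and 2 and 6 in WT rescue NPCs (2.47% and 7.41%). At all 17194 CTCF sites the shares were 25.8% and 30.3% in ZF1 rescue and 24.9% and 40.4% in WT rescue NPCs. The 81 sites were lower in 4 of 4 libraries, by a mean of 24.2 percentage points (difference -24.2 ± 5.95, SD, n = 4 libraries; exact sign-flip permutation, two-sided, p = 0.125, the smallest p that 4 libraries allow).

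The difference depended on which CTCF sites were compared. Strength and presence in ESCs were not separated. The median Smc3 percentile was 39.3 at CTCF sites without ESC Smc3 and 63.2 at those with it. It was 34.3 at the 92 sites with ESC Smc3 and no CTCF and 32.3 at the 81. Against the 2971 CTCF sites with a mean Smc3 percentile between 19.8 and 42.7, the middle range of the 81, the Rad21 difference was 1.01 percentage points (p = 0.75, same exact test). Against CTCF sites without ESC Smc3 it was 0.853 ± 2.20 (SD, n = 4, exact p = 0.75), higher at the 81 sites in 2 of 4 libraries. In both cases the difference changed sign. Against the 92 sites with ESC Smc3 and no CTCF, the 81 were lower in 4 of 4 libraries, by 11.2 ± 5.26 points (difference -11.2, exact p = 0.125). Rad21 was called at 26.3% of the promoter sites in at least 1 library and 11.3% of the others. Per library the promoter sites were higher in 4 of 4, by a mean of 7.41 ± 2.99 points (SD, n = 4, exact p = 0.125), which rested on 1 to 3 promoter sites per library. Sites without a motif were likewise above those with one in 4 of 4 libraries, by 5.14 ± 2.00 points (SD, n = 4, exact p = 0.125). This rested on 2 to 4 sites without a motif per library, the same 2 of them (Ptms and Ypel4) in every library, and on 0 to 4 with one. In at least 1 library, Rad21 was called at 16.7% of the sites without a motif (7.87 to 31.9) and 13.3% of those with one (6.26 to 26.2).

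**Figure D4:**
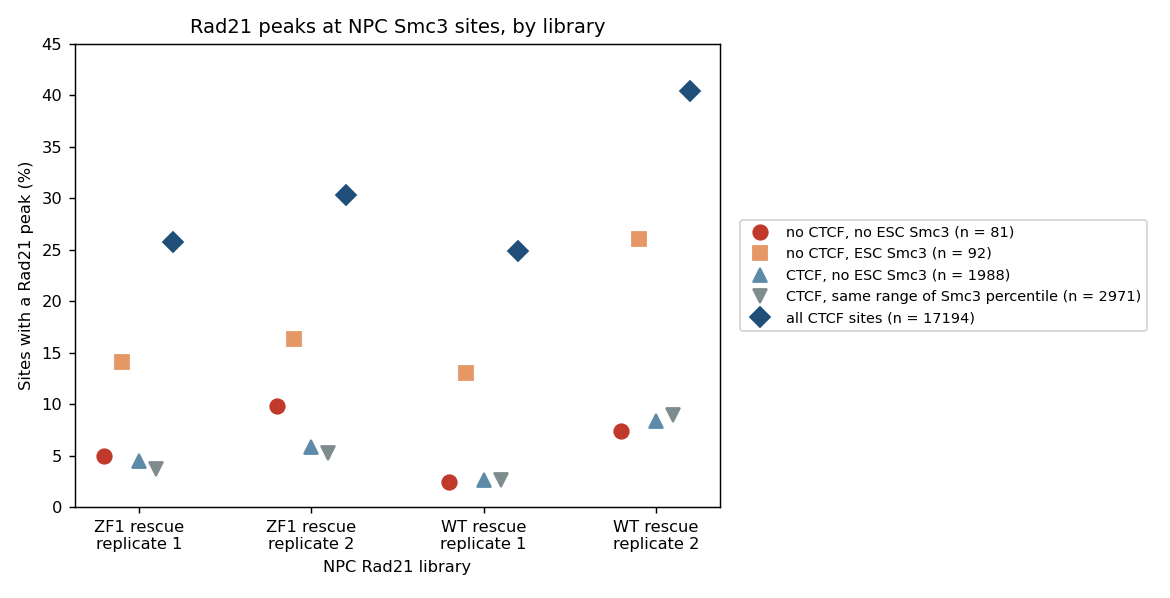
Share of sites with a Rad21 peak (%, y axis) in each of the 4 NPC Rad21 libraries (x axis), for the 81 sites (red), the 92 sites with ESC Smc3 and no CTCF, the CTCF sites without ESC Smc3, the CTCF sites in the same range of Smc3 percentile, and all CTCF sites. The red points, 2.47% to 9.88%, lie under all CTCF sites in every library and near the CTCF sites of like strength.

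Only 2 of the 81 sites, Ptms and Ypel4, were called in 4 of 4 NPC Rad21 libraries, 2 in 2 libraries and 8 in 1. Ptms, chr6:124915240-124915800, is the start of the gene for parathymosin, a small acidic nuclear protein, with a summit 35 bp from the start. Its Rad21 fold enrichment was 22.9 and 23.7 in ZF1 rescue and 21.8 and 26.1 in WT rescue NPCs, from 149, 233, 142 and 250 fragments at the summit. These were the peaks ranked 4, 3, 6 and 6 by fold among 5106, 6069, 4766 and 8142 peaks. Smc3 at the same place was weak, with 5.02 and 5.30 in ZF1 rescue and 3.81 and 4.75 in WT rescue NPCs from 27 to 47 fragments, a mean percentile of 21.1, and was not called in E14 or in either truncation line. The Rad21 summits were within 22 bp of the Smc3 summit, and the Rad21 peaks were 1799 to 2009 bp wide.

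In ESCs, the Ptms site had a Rad21 peak in 4 of 4 libraries as well, at 8.25 and 9.38 in ZF1 rescue and 5.83 and 10.0 in WT rescue. The 4 NPC libraries were all above the 4 ESC libraries. Ptms was named for its NPC Rad21 calls, and the sites were kept for Smc3 in NPCs and none in ESCs. Both steps favour this direction, and the share of all Rad21 peaks that separate in the same way was not computed. Among the 10 Rad21 peaks of highest fold in an NPC library, 4 to 6 overlapped no NPC CTCF peak, and 1 in each library was the Ptms site.

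Ypel4, chr2:84735931-84737171, belongs to a family of conserved small zinc-binding proteins. The site covered a coding exon 2605 bp downstream of the nearest start and was 1241 bp wide. Its Rad21 fold enrichment was 4.74 and 5.02 in ZF1 rescue and 3.44 and 4.47 in WT rescue NPCs, low in each list (percentiles 1.09 to 31.3). Smc3 had 6.92 and 4.59 in ZF1 rescue, 5.40 in WT rescue replicate 1 and 6.39 in E14 replicate 2. The nearest NPC CTCF peak was 86 bp away.

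The sites called in 2 Rad21 libraries were Gm43804, at 3.73 in ZF1 rescue replicate 2 and 3.66 in WT rescue replicate 2, and Gm8365, at 4.78 and 5.54 in ZF1 rescue with no peak in WT rescue. Gm43804 and Gm43803 are neighbouring non-coding genes whose sites lie 811 bp apart, so these 2 sites are not independent. Rbms1, Olfm3, Fam19a2, Gm43803 and Gm5684, like Meis2 and Lhx3, were among the sites called in 1 library. Of the 12 sites with Rad21, 6 held a CTCF motif.

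Between cell types, Rad21 was called at 6.17% of the 81 sites on average in NPCs (2.47% to 9.88%, 4 libraries) and at 1.54% in ESCs (1.23% to 2.47%). The difference of 4.63 points did not pass an exact permutation test over 4 against 4 libraries (two-sided p = 0.0571, smallest possible 0.0286). The sites were kept for Smc3 peaks in NPCs and none in ESCs, and since Smc3 and Rad21 belong to 1 complex, the choice itself favours this direction. Over all 17367 sites the Rad21 shares were 25.6% and 30.1% in ZF1 rescue NPCs and 24.7% and 40.2% in WT rescue NPCs, against 6.21% and 11.1% in ZF1 rescue ESCs and 18.4% and 49.1% in WT rescue ESCs. Only 2 of the 81 sites, Ptms and Gm46138, had a Rad21 peak in ESCs. The NPC lists held 4766 to 8142 Rad21 peaks and the ESC lists 1306 to 10410. With each list reduced to its 1306 strongest peaks, the difference was 0 points (p = 1, same exact permutation test).

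CTCF peaks in ESCs were not used in the choice, but the choice was not neutral for them. Most sites with an NPC CTCF peak also had a CTCF peak in ESCs. Leaving such sites out therefore favours a low share of ESC CTCF peaks. At least 1 of 8 ESC CTCF libraries called a peak at 18 of the 81 sites (22.2%), of which 14 held a motif (14 of 45 with a motif and 4 of 36 without). At CTCF sites without ESC Smc3, which had an NPC CTCF peak by definition, the share was 87.2%. It was 25.0% at the 92 sites with ESC Smc3 and no NPC CTCF (17.3 to 34.7), so the low share was not particular to the 81. By library, 8, 1, 0 and 0 of the sites were called in ZF1 rescue ESCs and 10, 1, 3 and 0 in WT rescue ESCs. The lists of replicate 4 in the rescue lines carry peak names of replicate 2 of the same group, although their peaks differ in number, and were taken as labelled. Replicate 1 of both groups had the longest lists, 45941 and 43003 peaks, against 11189 to 23184 in the other 6. Zfp664, a zinc finger gene, had a peak in 3 ESC libraries, and Gm29759, Tars and Dock8 in 2. NPC CTCF peaks were absent from all 81 by choice, but lay within 1 kb of 14 of them (17.3%), 10 without a motif and 4 with one.

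No difference in Smc3 enrichment between NPC groups passed the test at these sites when all libraries were used. The folds of each library were ranked and the ranks turned into normal scores, and limma was fitted to every site with a peak in the 4 libraries of a comparison. P-values were adjusted by Benjamini-Hochberg over every site in the fit, at a threshold of 0.05. Differences are in SD of these scores, so they give a change of rank rather than of fold. For ZF1 rescue against WT rescue NPCs, 32 of the 81 sites entered the fit with 12137 sites in all. None of the 32 passed, against 2 of 12137 over all sites (0.0165%), and 5 of the 32 and 1637 of all sites had an unadjusted p under 0.05. The median difference was -0.13 SD over the 32 sites and 0.00 over all sites, with 11 of 32 higher in ZF1 rescue. With the replicate number added to the model none of the 32 passed either.

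The 5 sites with an unadjusted p under 0.05 were Slit3, higher in ZF1 rescue by 1.01 ± 0.33 SD (SE), Gm15707, a non-coding gene, higher by 0.88 ± 0.31, Cpt1c, with a difference of -0.86 ± 0.32, a site in an untranslated region of Phc1 whose nearest start was that of M6pr, with -0.86 ± 0.34, and a site in an intron of Dgki, with -0.75 ± 0.32. Their adjusted p-values in limma were 0.207, 0.239, 0.262, 0.287 and 0.325. The 21 sites without a motif had a median difference of -0.32 SD, with 6 of 21 higher in ZF1 rescue, and the 11 with a motif -0.05, with 5 of 11 higher. All these sites are a subset that both groups called, so they do not stand for the 81.

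For ZF1 rescue against E14 NPCs, 6 of the 81 sites entered the fit of 9179 sites and none passed, with 0 of 9179 over all sites (0%), where 0 of the 6 and 1443 of all sites had an unadjusted p under 0.05. For WT rescue against E14 NPCs, 2 sites entered the fit of 7496, Gm29759 and Dcx, and none passed, with 0 of 7496 over all sites (0%) and 998 with an unadjusted p under 0.05. These comparisons share the E14 libraries. In a fit without E14 replicate 1, in which the lone E14 library was assumed to vary like the ZF1 rescue libraries, 1 site, Gm47253, passed with a difference of -2.05 SD (limma adjusted p = 0.0132), and over all sites 1543 of 9179 passed.

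The sites differed in which libraries called them. ZF1 rescue called 80 and 79 of the 81 sites, WT rescue 79 and 35, and E14 29 and 33. Each of these numbers was part of the choice. The commonest patterns were all 4 rescue libraries with no E14 (27 sites), and both ZF1 rescue libraries with WT rescue replicate 1 and E14 replicate 2 alone (22 sites) or E14 replicate 1 alone (18 sites). No site was called in both ZF1 rescue libraries and neither WT rescue library, a pattern of 0.397% of the 17367 sites, and 1 site, Dcx, was called in both WT rescue libraries and neither ZF1 rescue library, a pattern of 0.0173%. With 2 against 2 libraries the smallest exact p is 0.333.

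Library depth differed in the same direction as the calls. The fold enrichment and p-value of a peak together give whole numbers of fragments, and the lowest background of a list, a measure of relative depth, was 2.19 and 2.99 fragments per bp in ZF1 rescue, 2.13 and 2.30 in WT rescue and 0.474 and 0.424 in E14 NPCs. WT rescue replicate 2 had a depth like the other rescue libraries but 13695 peaks, against 30511 and 34086 in ZF1 rescue and 27796 in WT rescue replicate 1. The ESC Smc3 lists, whose peaks were left out, had a depth of 2.05 to 3.51 and held 8167 to 18021 peaks, and the 14 NPC CTCF lists 5755 to 33452. Genotype, treatment and depth cannot be told apart between the rescue lines and E14.

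The patterns were not spread evenly over the kinds of site. E14 called 24 and 20 of the 45 sites with a motif (53.3% and 44.4%) and 5 and 13 of the 36 without (13.9% and 36.1%). WT rescue replicate 2 called 13 of the 45 with a motif (28.9%) and 22 of the 36 without (61.1%). Since nearly all sites were called in the other 3 rescue libraries, the fourth call had to come from WT rescue replicate 2 or E14, and a high share in one goes with a low share in the other by the choice itself.

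The truncation lines were not part of the choice. Podxl SV40pA NPCs called 12 and 14 of the 81 sites (14.8% and 17.3%) and Grb10 SV40pA NPCs 12 and 6 (14.8% and 7.41%), against 29 and 33 in E14, whose calls helped to choose the sites. At CTCF sites without ESC Smc3, the shares were 19.8% and 36.6% in Podxl SV40pA, 27.5% and 25.2% in Grb10 SV40pA, and 53.3% and 51.7% in E14. The relative depth was 0.354 and 0.282 in Podxl SV40pA and 0.547 and 0.276 in Grb10 SV40pA, below both E14 libraries (0.474 and 0.424) except in Grb10 SV40pA replicate 1, and the lists held 10005 to 13292 peaks, against 15626 and 13875 in E14. Of the 81 sites, 35 had a peak in at least 1 of the 4 truncation libraries. Gm43723, a non-coding gene, was called in 3 of the 4, the most of any site. No site lay within 100 kb of Podxl or Grb10.

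The weakest sites that were kept were Lyrm7, a mitochondrial assembly factor, at a mean Smc3 percentile of 4.95, Cpt1c at 7.31 and Trmt5 at 7.76, each at a promoter and called in 4 libraries. The strongest sites that missed the choice by 1 library were near Syn2, a synaptic vesicle gene, at 75.3, Gm9700 at 64.0 and Gm47592 at 63.7. In all, 326 sites without CTCF and ESC Smc3 were called in 3 of 6 libraries, and 33.4% of them were within 1 kb of a start. Another 406 sites would have joined the 81 if only the 8 CTCF libraries of the rescue lines had been used, so these sites had an NPC CTCF peak in E14 or a truncation line alone.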

How the data were processed

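The authors aligned paired-end reads to mm10 with Bowtie2, filtered them with SAMtools, Picard and bedtools, and called peaks per library with MACS2. The sources used here name no versions. The deposited lists hold a score, the fold enrichment at the summit and −log10 p and q values, as the authors' caller wrote them. The fold is a ratio to local background, with the same constant added to both parts. The lowest −log10 q in the NPC Smc3 lists was 2.00. The 54 samples gave 44 lists, and 10 inputs without a list were not used. The study's differential test needs counts in each region, which these lists do not hold, and was not run.

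Peaks sharing at least 1 bp were merged. Fragments at the summit were recovered from fold and p (100% of peaks with −log10 p up to 60 came out whole within 0.002). Starts, exons and UTRs came from GENCODE M21, and sequence from the RefSeq copy of GRCm38, whose coordinates are those of mm10. Shares carry 95% Wilson intervals. Differences over libraries used exact permutation tests, and Smc3 was fitted with limma 3.58.1 in R 4.3.3, tested on simulated data. Replicate numbers of 2 libraries per group do not establish pairs. The labels do not say that replicates were separate cultures, so p-values may measure technical spread only. The sites and gene lists were chosen with earlier results of these data known. Named sites were the site called in all 6 libraries, the 10 with most Rad21 calls, any passing limma, those called in both E14 and both WT rescue libraries but in neither ZF1 rescue library (or with WT and ZF1 exchanged), those within 1 kb of a listed gene, the 3 weakest, and the 5 with most ESC CTCF calls. Others are named as chosen after their values were seen. Values of 1 site that these rules would name are not reported here.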

Additional observations from a re-analysis of the deposited data

Results flagged for a closer look

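CTCF in ESCs at the 81 sites was uneven among the 4 libraries of ZF1 rescue ESCs. Replicate 1 called a CTCF peak at 8 of the 81 sites, and the other libraries at 1, 0 and 0, so that replicate 1 stood apart from the rest by Dixon's test. A test of this kind picks out about 1 in 20 groups by chance, and 2 groups were tested. The list of replicate 1 held 45941 peaks at a median width of 401 bp, against 15779 to 17092 peaks and 236 to 358 bp in the other 3. The part of list length in this result was not tested. Of the sites, 5 of the 8 held a CTCF motif.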

How the results depend on the processing

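The number of sites rested on how many libraries had to call a site and on which CTCF lists excluded it. It was 10 with 5 or more libraries and 1 with all 6, 49 with Smc3 peaks of −log10 q of at least 5, 242 when a peak had to cover 50% of a site to count, 487 with the 8 rescue CTCF libraries alone, 3 with each Smc3 list reduced to its 13695 strongest peaks, and 12 to 60 with a library left out. It was 12 without ZF1 rescue replicate 1, ZF1 rescue replicate 2 or WT rescue replicate 1, since 4 calls were then needed of 5 libraries, and 51 without WT rescue replicate 2. In the same order, the promoter share was 10%, 0%, 10.2%, 34.7%, 10.7% and 0%, and 8.33% to 26.7% with a library left out. The share with Rad21 was 0% with all 6 libraries, 33.5% with the cover rule, 0% with equal peak numbers, 4.94% when 2 Rad21 libraries were needed, and 8.33% to 15.7% with a library left out. The other alternatives left these shares inside their intervals.

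The Rad21 difference from CTCF sites changed sign against CTCF sites of like strength (1.01 points) and against those without ESC Smc3 (0.853 points, an alternative chosen after seeing the data). The NPC minus ESC difference was 3.40 to 5.86 points with a library left out, passing at p = 0.0286 (exact permutation) without Rad21 NPC WT rescue replicate 1 (5.86 points), and at the 36 sites without a motif it was 6.25 points (p = 0.0286), a subset chosen after seeing the data. Since the choice of sites by NPC and ESC Smc3 favours this direction, neither p is read as support for it. Over that comparison's alternatives p ranged between 0.0286 and 1. Sites called in both libraries of one rescue line and in neither of the other were 4 with −log10 q of at least 5 and 3 with equal peak numbers. They were 1 to 46 with a library left out, 46 without WT rescue replicate 1. WT rescue then rested on replicate 2, which called 35 of the 81, and 45 of the 46 were called in ZF1 rescue. The shares over all sites under these settings were not computed, so these counts are not read as a difference between the lines. The share of sites called in the truncation lines averaged 13.6%, and 8.64% with equal peak numbers. In the fit of ZF1 rescue against E14 NPCs, 0 to 1 sites passed with a library left out. With a replicate block, 0 of the 81 sites passed in any of the 3 comparisons, while over all sites 322, 270 and 172 passed for ZF1 rescue against WT rescue, ZF1 rescue against E14 and WT rescue against E14. Deviations of same-numbered libraries correlated at 0.15, 0.12 and 0.14 in these comparisons, over 2 numbers each.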

Other observations

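Of the 81 sites, 5 lay within 1.4 Mb of chromosome 3, among 20 sites called in at least 4 libraries there, a stretch chosen after the values were seen. They were a motif site in an intron of Maml3, a coactivator of Notch, a second Maml3 intron site without a motif at which 84.6% of the window was repeat-masked, the promoter of Cog6, a subunit of the Golgi tethering complex, and the neighbouring starts of Gm43804 and Gm43803, whose nearest coding gene is Lhfp. The mean Smc3 percentiles of these sites were 35.4, 21.3, 20.9, 19.8 and 39.2.

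Close pairs of sites also occurred at 2 other places. A pair lay 122 bp apart in an intron of Dgki, a diacylglycerol kinase, 89157 and 89805 bp from the nearest annotated start, with mean percentiles of 22.0 and 11.2. Another pair lay 412 bp apart in untranslated regions of M6pr and Phc1, M6pr encoding a mannose 6-phosphate receptor and Phc1 a Polycomb protein, with 13.2 and 11.2. The M6pr site held a CTCF motif and the Phc1 site did not.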
